A study of Mus musculus with 2 samples.

Results

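The regions described here are places beside protein-coding genes where chondrocytes with a conditional knockout of Uhrf1 gave less captured methylated DNA than Control chondrocytes. Each has its summit, the base with the most captured tags, within 1 kb of either annotated end of a protein-coding gene on chromosomes 1 to 19. The deposited list held 1611 such regions among 34675 on those chromosomes and 35861 in all. The rule used position alone and no measured level.

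DNA methylation in mammals sits mainly on cytosines followed by guanine (CpG) and is copied to the new strand after each round of replication. Uhrf1 recognises CpG methylated on one strand only and brings the maintenance methyltransferase Dnmt1 to it. Gene starts rich in CpG, called CpG islands, are usually free of methylation, apart from starts such as those of many germline genes, whereas gene bodies and transcript ends usually carry it.

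Primary chondrocytes, the cells that make cartilage, came from the knee cartilage of C57BL/6 mice at postnatal day 3. All cells were grown to confluence and exposed to 100 ng/ml of recombinant human BMP-2, a growth factor of cartilage and bone, for 24 hours. DNA sheared to about 300 bp was captured with MBD2, a protein that binds methylated CpG, and sequenced (MBD-seq). There was 1 library of Uhrf1 conditional knockout (cKO) cells and 1 of Control cells, so no difference has a replicate check and no p-value is given. The labels name neither the Cre driver of the knockout nor the number of mice. The cKO library kept 15039206 of 19760028 tags (23.9% removed as repeats of a position) and the Control library kept 9782276 of 21831989 (55.2% removed). The part of this difference in any result below was not tested.

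The list gives, for each region, the number of Control tags and the authors' fold, which runs as Control over cKO. A larger fold therefore means a lower cKO signal relative to Control. The list also gives a score, minus 10 times the log10 of the authors' p, and a false discovery rate (FDR) from calling with the libraries swapped. Fold, score and FDR are the authors' own values for each region and are used only to describe and rank regions within the list. Intervals are 95% intervals (Wilson for shares, order statistics for medians) and cover counting error only. Regions with more cKO signal are not in this list and were not analysed here. Fewer copies of a DNA stretch and less methylation of it cannot be told apart in captured DNA.

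Uhrf1 itself (chromosome 17, 56303337 to 56323486, mm10, plus strand) had no region at either end. It held 5 regions, all inside the gene, with the nearest summit 4589 bp from an end. They had 57 to 235 Control tags and folds of 7.32 to 24.59. These regions do not check the deletion, since the deleted stretch is not given in the labels.

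The 7 start sequences that follow belong to genes whose region summit lay in the 300-base start window, which runs from 250 bases before the annotated start through the first 50 bases of the gene. They are shown because they hold the sequence at which the cKO signal was lower, right at a gene start. BC048507 to Ube2d2b have the most Control tags among the named genes of this kind. Pnlip has the highest fold of them and was added after its value was seen. Sequences are those of RefSeq on GRCm38.p6, read 5′ to 3′ on the gene's strand, with every CpG in capitals, and base 251 is the annotated start.
BC048507 (chr13:67863076-67863375, plus strand, 6 CpG, summit at base 186): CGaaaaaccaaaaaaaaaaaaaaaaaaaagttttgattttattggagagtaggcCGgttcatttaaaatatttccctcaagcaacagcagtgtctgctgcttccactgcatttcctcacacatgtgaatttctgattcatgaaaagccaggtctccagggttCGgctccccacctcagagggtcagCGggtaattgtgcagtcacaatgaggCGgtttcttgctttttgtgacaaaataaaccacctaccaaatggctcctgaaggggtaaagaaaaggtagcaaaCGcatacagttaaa
Btbd18 (chr2:84658829-84659128, plus strand, 23 CpG, summit at base 191): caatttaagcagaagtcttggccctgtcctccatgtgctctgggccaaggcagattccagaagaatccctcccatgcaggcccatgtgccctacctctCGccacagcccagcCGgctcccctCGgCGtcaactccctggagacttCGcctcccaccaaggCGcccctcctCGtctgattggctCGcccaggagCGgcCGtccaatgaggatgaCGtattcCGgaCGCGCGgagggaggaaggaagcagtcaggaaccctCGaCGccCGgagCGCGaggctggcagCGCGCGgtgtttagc
Ctnnd1 (chr2:84658928-84659227, minus strand, 30 CpG, summit at base 209): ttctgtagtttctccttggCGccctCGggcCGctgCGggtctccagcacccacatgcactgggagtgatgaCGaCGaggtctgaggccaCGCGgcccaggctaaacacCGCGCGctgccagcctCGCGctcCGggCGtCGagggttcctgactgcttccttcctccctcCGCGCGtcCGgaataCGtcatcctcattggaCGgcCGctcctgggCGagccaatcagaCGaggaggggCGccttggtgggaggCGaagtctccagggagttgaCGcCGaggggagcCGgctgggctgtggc
Naa11 (chr5:97392281-97392580, minus strand, 16 CpG, summit at base 248): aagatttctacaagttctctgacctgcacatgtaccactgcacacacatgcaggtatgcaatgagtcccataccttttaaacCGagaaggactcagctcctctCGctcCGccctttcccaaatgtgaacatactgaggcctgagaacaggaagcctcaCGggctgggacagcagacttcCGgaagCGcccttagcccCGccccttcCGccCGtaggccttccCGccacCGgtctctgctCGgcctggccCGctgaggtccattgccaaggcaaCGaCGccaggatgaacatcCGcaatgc
Dpep3 (chr8:105979370-105979669, minus strand, 12 CpG, summit at base 223): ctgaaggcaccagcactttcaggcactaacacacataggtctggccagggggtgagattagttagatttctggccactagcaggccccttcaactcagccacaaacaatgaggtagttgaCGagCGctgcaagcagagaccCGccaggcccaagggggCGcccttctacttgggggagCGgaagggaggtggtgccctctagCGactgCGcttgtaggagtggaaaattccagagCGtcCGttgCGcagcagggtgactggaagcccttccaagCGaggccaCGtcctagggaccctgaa
Ube2d2b (chr5:107829912-107830211, plus strand, 11 CpG, summit at base 237): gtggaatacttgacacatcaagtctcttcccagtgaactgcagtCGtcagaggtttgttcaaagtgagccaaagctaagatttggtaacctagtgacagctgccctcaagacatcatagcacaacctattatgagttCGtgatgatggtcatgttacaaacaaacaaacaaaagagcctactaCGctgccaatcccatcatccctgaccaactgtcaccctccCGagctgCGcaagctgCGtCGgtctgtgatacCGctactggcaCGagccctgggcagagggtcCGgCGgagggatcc
Pnlip (chr19:58670115-58670414, plus strand, 11 CpG, summit at base 240): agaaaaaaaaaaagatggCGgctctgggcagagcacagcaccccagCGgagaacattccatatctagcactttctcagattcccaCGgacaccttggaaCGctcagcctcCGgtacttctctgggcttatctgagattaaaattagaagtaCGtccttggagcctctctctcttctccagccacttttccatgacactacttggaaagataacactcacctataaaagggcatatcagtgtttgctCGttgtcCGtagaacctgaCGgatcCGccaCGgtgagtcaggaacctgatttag

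These windows differ widely in CpG. The BC048507 window has 6 CpG, while the Ctnnd1 window has 30. Btbd18 and Ctnnd1 are transcribed away from each other, their windows overlap, and they share 1 region. None of the 7 windows holds CACGTG, the E-box bound by Myc and Usf proteins, or TGACGTCA, the cyclic AMP response element. On either strand, CACGTG is found in 7.97% and TGACGTCA in 2.40% of the 16457 start windows with a known strand.

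The folds at these starts ran from 3.84 to 49.45. BC048507 had 361 Control tags at 15.87-fold (FDR 0%). Btbd18, needed for piRNA production in mouse spermatocytes, and Ctnnd1, the p120 catenin of cell junctions, shared 332 tags at 3.84-fold, with an FDR of 11.35%. Naa11, the testis form of the catalytic subunit of an N-terminal acetyltransferase, had 319 tags at 5.2-fold (FDR 0.33%). Both folds lay below the lower quartile of the members, 8.465, although both tag counts were high. Dpep3, a dipeptidase of the testis, had 255 tags at 12.49-fold (FDR 0%). Ube2d2b, a ubiquitin-conjugating enzyme with close copies in the genome, had 248 tags at 7.39-fold (FDR 0.07%). How reads matching several copies were placed is not given in the sources used here. Pnlip, the pancreatic lipase, had 194 tags at 49.45-fold (FDR 0%), the highest fold among these start-window genes.

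In all, 41 genes had the summit in their start window, in 39 regions (2.42% of the members, 1.78 to 3.29). The median region had 155 Control tags (117 to 195, with a range of 12 to 361) and a fold of 11.53 (9.6 to 15.88), and 26 of 39 had an FDR of at most 5% (66.7%, 51.0 to 79.4). Further members, named after their values were seen, included Spata16 (241 tags, 12.45-fold), a gene of sperm formation, and Smc1b, the meiotic cohesin subunit, which shares a region of 152 tags at 5.73-fold with Ribc2. Musk, the receptor kinase of the neuromuscular junction, had 220 tags at 12.21-fold. Piwil4, a piRNA-pathway protein, lay at the low end with 12 tags, 36.25-fold and an FDR of 100%. Snurf, an imprinted gene, had 66 tags at 7.63-fold and an FDR of 51.39%. Both have FDR values above the 5% limit.

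Over all members the fold was close to that elsewhere in the list. The median fold was 12.21 at gene ends (11.84 to 12.54, interquartile range 8.465 to 17.8), against 12.01 within protein-coding genes, 12.19 in other gene models, 12.2 between genes and 12.09 over all autosomal regions. Folds of members ran from 2.82 to 112.06. The median member had 113 Control tags (range 11 to 656), against 104 over all autosomal regions. An FDR of at most 5% was listed for 987 members (61.3%, 58.9 to 63.6), against a background of 57.3% of all autosomal regions. The members covered 791.18 kb and held 216470 Control tags, 2.21% of those kept.

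A region at an end was found for 1632 of 20665 autosomal protein-coding genes, which is 7.9%. Of these genes, 1548 had 1 region, 82 had 2 and 2 had 3. Strand, needed to tell a start from an end, was known for 16457 genes (79.6%). Among them 458 had a region at the start (2.78%) and 896 at the transcript end (5.44%), with 42 in both groups. Of 1295 regions with a known strand, 434 lay nearer a start (33.5%, 31.0 to 36.1) and 861 nearer a transcript end. The other 316 members (19.6%) could not be placed in this way.

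Starts and transcript ends also differed in how regions were spread along the sequence. Beyond 2 kb from a start, the median 200-bp bin held 4.86 summits per 1000 genes outside the gene and 5.10 inside it. In the bins on either side of the start the mean was 2.58, and the lowest bin, 200 to 400 bp inside the gene, held 1.34. At transcript ends there was no such trough: the mean of the bins on either side was 6.11, against 4.56 beyond 2 kb outside the gene and 5.71 beyond 2 kb inside. Of the start regions, 274 (63.1%, 58.5 to 67.5) lay upstream of the gene and 83 (19.1%) within 200 bp of the start. Of the end regions, 475 (55.2%, 51.8 to 58.5) lay inside the gene and 198 (23.0%) within 200 bp of the end.

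**Figure D1:**
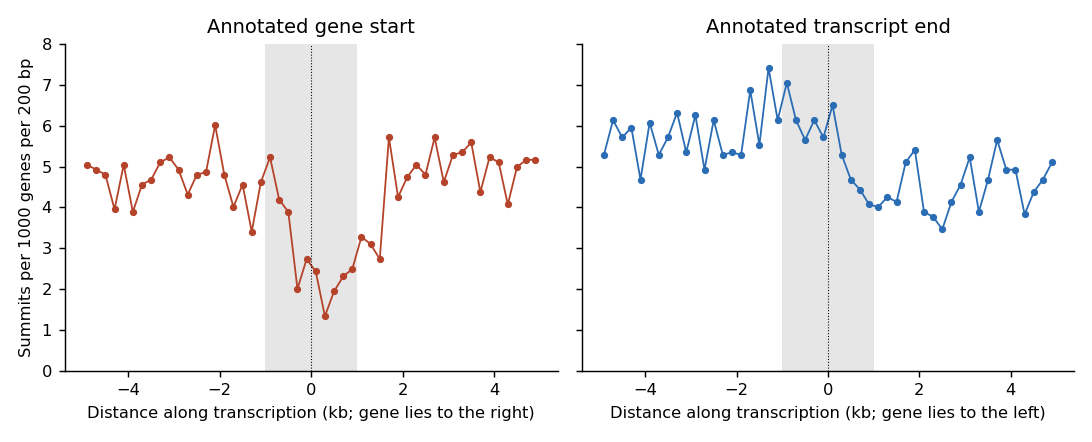
Summits of listed regions per 1000 genes in 200-bp bins (vertical axis) by distance in kb along transcription from the annotated gene start (left) and transcript end (right), for 16457 genes, with the 1 kb on either side shaded. The line drops to 1.34 just inside starts. Around transcript ends it averages 6.11 over the bins on either side and comes down to 4.07 at 800 to 1000 bp beyond the end.

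The trough at starts was deepest, relative to its surroundings, at genes with many CpG in the start window. For the 9329 genes with 11 to 65 CpG, the bins ran at 6.22 summits per 1000 genes at 1200 to 1000 bp upstream, 2.04 at 400 to 200 bp upstream and 1.29 at 200 to 400 bp inside the gene, and were back at 7.29 at 1600 to 1800 bp inside. For the 7128 genes with 0 to 10 CpG, the bins stayed between 1.403 and 4.49 over the whole span of 5 kb on both sides. Their lowest bin, with 10 summits, was also at 200 to 400 bp inside the gene, and at 400 to 200 bp upstream they had 1.96. Their bins on either side of the start held 3.23 and 3.65, against 2.36 and 1.501 for the genes with more CpG. The order of the 2 gene groups was thus the opposite at the start of that farther away.

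**Figure D2:**
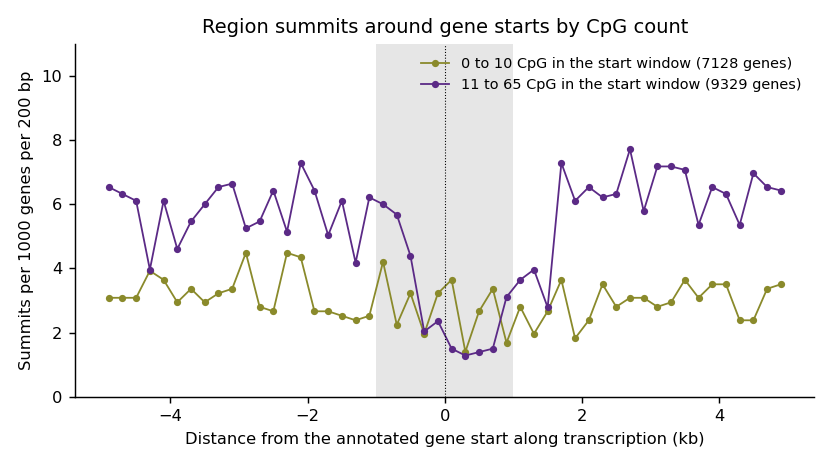
Summits per 1000 genes in 200-bp bins (vertical axis) by distance in kb from the annotated gene start, for genes with 0 to 10 and with 11 to 65 CpG in the 300-base start window, with the 1 kb on either side shaded. The line for genes with more CpG drops to 1.29 inside the gene, and the line for genes with fewer CpG stays between 1.403 and 4.49. Both lines are lowest at 200 to 400 bp inside the gene.

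Counted by gene, start regions were most frequent at starts with a middling number of CpG, and end regions at genes with the most. A start region was found for 1.62% of the genes with 0 to 3 CpG (1.27 to 2.06), for 5.37% of those with 7 to 10 (4.33 to 6.65) and for 1.59% of those with 31 to 65 (1.16 to 2.19). A region at the transcript end was found for 1.93% (1.54 to 2.40), 5.10% (4.08 to 6.35) and 8.61% (7.53 to 9.82) of the same classes. For starts the intervals of the outer classes do not overlap that of 7 to 10 CpG, and for ends no pair of these 3 classes overlaps. The start shares at 11 to 15 CpG (3.50%, 2.72 to 4.50) and 16 to 20 CpG (4.06%, 3.26 to 5.03) had intervals that overlap that of 7 to 10. Without olfactory and vomeronasal receptors, many of which are in the lowest class, the shares of that class were 2.24% at starts and 2.60% at ends. The median start window had 14 CpG among genes with a start region, 21 among genes with an end region and 14 among all genes with a known strand. The median GC content of the window was 61% among genes with an end region and 56.7% among genes with a start region and among all, and the part of base composition was not tested.

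**Figure D3:**
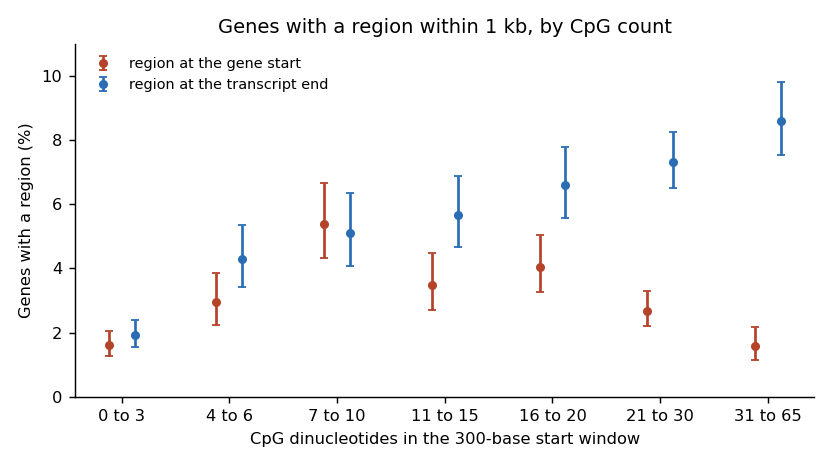
Percent of genes with a listed region within 1 kb of the start or of the transcript end (vertical axis), by number of CpG in the start window (horizontal axis), with 95% Wilson intervals as bars. Start shares are highest at 7 to 10 CpG (5.37%), and end shares climb to 8.61% at 31 to 65 CpG.

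Within the start regions, the median CpG count of the window varied with the place of the summit, and the quartiles overlapped. Genes whose summit lay over 500 bp upstream had a median of 18 CpG (187 genes, quartiles 8.5 to 24). Those with it over 250 to 500 bp upstream had 16 (58 genes). Genes with the summit in the window had 10 (59 genes, by the outermost annotated start, which differs from that of the window in some genes). Those with it 50 to 500 bp inside the gene had 8 (69 genes, quartiles 4 to 14). With the summit over 500 bp inside, the median was 11 (97 genes, quartiles 5 to 21). The motif CACGTG was in 8.52% of the windows of genes with a start region and 10.4% of those with an end region, against 7.97% of all. TGACGTCA was in 2.84% and 2.57%, against 2.40% of all. CACGTG and TGACGTCA each hold a CpG, and the part of the CpG count in these shares was not tested.

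Regions at transcript ends had a larger median fold than those at starts. The median fold was 13.29 at ends (12.71 to 14.11) and 10.59 at starts (9.93 to 11.08), with medians of 113 and 116.5 Control tags. End regions inside the gene had a median of 14.27 and those beyond it 12.08, against 12.09 over all autosomal regions. Start regions had 10.915 inside the gene and 10.425 upstream. Folds of 20 or more were given for 28.0% of end regions inside the gene and 17.1% of those beyond it, against 12.5% of start regions inside the gene and 12.4% of those upstream. Over all autosomal regions the share was 21.0%. The members were also split into 4 groups of like size at 67, 113 and 181 tags. The median fold of end regions and of start regions was 20.08 and 11.815 in the group with the fewest tags. The median tags in that group were 35 at ends (32 to 38) and 48 at starts (43 to 54), so tag numbers were not matched there. The folds of end and start regions were 8.695 and 8.215 in the next group, with a median of 88.5 tags for each, 12.24 and 10.86 in the one after it and 14.51 and 11.89 in the group with the most, where the median tags were 257 at ends and 235 at starts. Intervals overlapped in the group that ends at 113 tags (8.02 to 9.59 at ends, 7.51 to 9.19 at starts) and not in the group with the most tags (13.86 to 15.18 at ends, 10.58 to 12.88 at starts). With an FDR of at most 5% the medians were 14.45 at ends and 12.37 at starts. What the cKO library held at each place is known only through the fold.

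**Figure D4:**
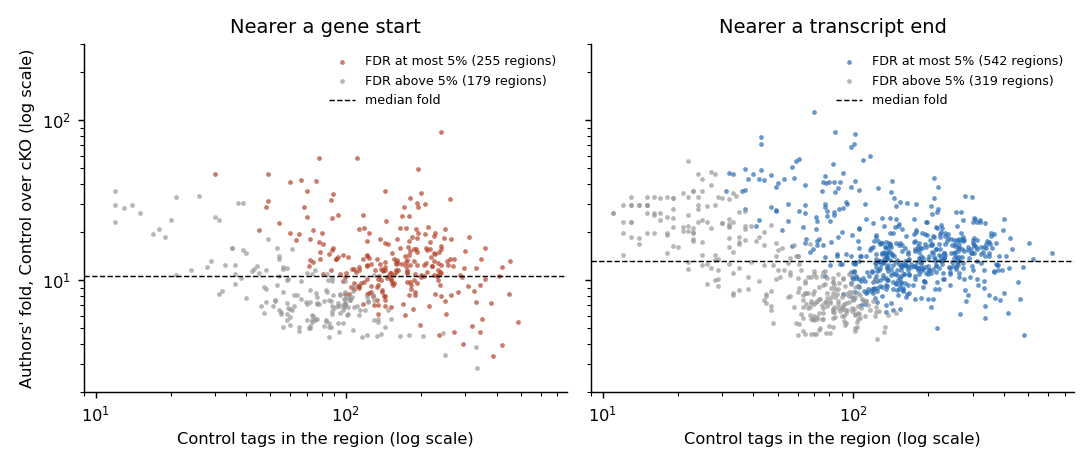
Authors' fold, Control over cKO (vertical axis, log scale), against Control tags in the region (horizontal axis, log scale) for 434 start regions (left) and 861 transcript-end regions (right), in grey where the FDR was above 5%. The dashed medians lie at 10.59 and 13.29, and in the group of up to 67 tags folds of 20 or more make up 50.2% of the transcript-end regions (median 35 tags) and 25% of the start regions (median 48 tags).

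Of the 10 members with the highest score, 6 lay inside the gene within 1 kb of its transcript end. By the authors' score, Cpt1b, the muscle carnitine palmitoyltransferase, came first, with 656 Control tags at 18.15-fold in a region of 1189 bp on chromosome 15 (89416074 to 89417262), its summit 52 bp outside the gene. That score, 3100, was given to 12 autosomal regions, of which 1 was a member. Pdgfa, the A chain of platelet-derived growth factor, had 626 tags at 14.72-fold, 690 bp inside its transcript end (chromosome 5, 138976413 to 138977135). Erg28, named for its yeast counterpart in sterol synthesis, had 505 tags at 17.08-fold, 971 bp inside. Atp7b, a copper transporter, had 401 tags at 24.29-fold, 799 bp inside, and Flcn, the tumour suppressor folliculin, had 299 tags at 33.39-fold, 962 bp inside. S100pbp (423 tags, 18.41-fold), Mgst3 (396 tags, 20.77-fold) and Pdcd5 (322 tags, 23.66-fold) were also end regions. Jade1, a PHD finger protein, was the single start region among the 10 by score, 673 bp upstream with 241 tags at 84.24-fold (chromosome 3, 41554618 to 41555390). All 10 had an FDR of 0%.

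One of these 10 lay beside a cartilage gene. Hspg2 encodes perlecan, the heparan sulphate proteoglycan of basement membranes and cartilage. A region with its summit 648 bp beyond its transcript end, and 403 bp inside the neighbouring Ldlrad2, had 280 Control tags at 33.78-fold (chromosome 4, 137571105 to 137571610).

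High tag counts did not go with high folds throughout. Cit, the citron kinase (522 tags, 13.54-fold), Pam, which amidates peptide hormones (477 tags, 12.03-fold), and Tada2a, an adaptor of histone acetyltransferases (455 tags, 9.69-fold), were end regions. Wdr89 had 480 tags at its end at 4.55-fold, and Amd2, which has a near copy in Amd1, had 485 tags at its start at 5.49-fold. Cpa1, the pancreatic carboxypeptidase A1, had 451 tags at 13.11-fold, 864 bp upstream, and Glra1, a glycine receptor subunit of unknown strand here, had 452 tags at 10.86-fold. Among members with at least 100 tags and an FDR of at most 5%, the 10 highest folds ran from 41.76 to 84.24. Ube3b, Qtrt2, Supt6, Slc2a1, Scube3, Pcdh18 and Tsfm had theirs inside the gene near the transcript end, and Jade1, Chst1 and Pnlip at the start. Scube3, a secreted protein, had 210 tags at 43.54-fold, 404 bp inside its end, and Tsfm, a mitochondrial elongation factor, had 143 at 41.76-fold, 289 bp inside.

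Values were mixed on both sides of the 1 kb limit. Just inside it were Odr4 at 999 bp (305 tags, 16.71-fold), Nek4 at 999 bp (121 tags, 10.13-fold) and Pnpla3 at 1000 bp (123 tags, 7.31-fold). Just outside were Bcl2l11 at 1001 bp (92 tags, 6.54-fold), Tchp at 1001 bp (27 tags, 26.71-fold) and Jmjd1c at 1003 bp (57 tags, 12.23-fold).

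Nfkb2, a precursor of NF-kappaB, and Cd47, the membrane protein that signals against phagocytosis, were the 2 genes with 3 regions. Nfkb2 had 224 Control tags at 18.97-fold 786 bp upstream of its start, 220 tags at 12.29-fold 679 bp inside it, and 239 tags at 19.44-fold 184 bp beyond its transcript end. The cKO signal was thus lower at both of its ends. Cd47 had all 3 at its transcript end, with 230 tags at 14.82-fold 612 bp inside, 141 at 13.44-fold 157 bp beyond and 332 at 8.98-fold 868 bp beyond. Regions at both ends were found for 59 genes, strand known or not.

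Neighbouring genes shared 105 members in pairs (6.52%), and 1 member lay beside 3 genes. By strand, 37 pairs were convergent transcript ends, 14 were divergent starts and 22 an end and a start, and for 30 a strand was not known. Of the remaining pairs, 1 had starts and 1 had ends on the same strand. The pair of ends, from the overlapping models Iqschfp and Schip1, had 324 tags at 12.8-fold inside a transcript end that both share. Among convergent ends, Mea1 and Ppp2r5d, a subunit of protein phosphatase 2A, shared 260 at 13.83-fold. Igf1r, the receptor of insulin-like growth factor 1 and a growth plate gene, shared 255 tags at 14.98-fold with Pgpep1l, 893 bp beyond its own end. Psd shared the end region of Nfkb2, Pptc7 and Rad9b shared 230 tags at 13.75-fold, and Elavl3 and Prkcsh 228 at 13.45-fold. Among divergent starts, Rad51c, a recombination protein, and Tex14, of the bridges between germ cells, shared 215 tags at 6.93-fold, and Dmrtc2 and Lypd4 shared 183 at 18.62-fold. Where an end met a start, Cenps and Cort shared 314 tags at 23.04-fold, and Per3, a clock gene, shared 195 at 28.72-fold with Uts2, the peptide urotensin 2. A shared region cannot be given to either gene.

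No region lay at an end of the listed matrix genes of cartilage. None of 20 cartilage matrix and chondrocyte identity genes (upper limit 16.1%), which include Acan, Col2a1 and Sox9, and none of 42 collagens (upper limit 8.38%) had a region at an end, against 7.9% of all genes, and the intervals of both hold 7.9%. The list leaves out Hspg2, which had one. Of 20 genes of hypertrophy and ossification 5 had one (25%, 11.2 to 46.9, an interval that overlaps that of the matrix list), with a median fold of 8.12, against 12.09 over all autosomal regions. Runx3, a transcription factor of chondrocyte maturation, had 179 tags at 8.12-fold 189 bp inside its start, and Dlx5, a homeobox factor of bone formation, had 199 at 10.93-fold, 440 bp inside an end. Pth1r, the receptor of parathyroid hormone-related protein, had 130 tags at 7.92-fold 138 bp beyond its transcript end. Mef2d (45 tags, FDR 100%) and Sp7 (43 tags, FDR 49.04%) were weak.

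Signalling genes of the growth plate had regions at shares whose intervals hold the 7.9% of all genes. Of 32 BMP and TGF-beta genes 3 had a region (9.38%, 3.24 to 24.2), and each had an FDR of at most 1.01%. These were Bmpr1a, a receptor of BMP-2, with 87 tags at 18.56-fold 82 bp beyond its end, Acvr2b, an activin receptor, with 76 tags at 41.13-fold 320 bp beyond its end, and Tgfbr2, with 86 tags at 14.53-fold 932 bp upstream. Of 28 further growth plate genes 5 had one (17.9%, 7.88 to 35.6). Beside Igf1r these were Fgf18, a growth factor of cartilage, with 263 tags at 12.4-fold 235 bp inside its end, Lrp5, a Wnt co-receptor, with 185 at 9.95-fold, Axin2, a Wnt feedback inhibitor, with 91 at 8.23-fold, and Fgf2, with 16 tags and an FDR of 77.26%.

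Germline genes had their regions at starts. Of 25 measured genes known for methylated starts in somatic cells, 8 had a region (32%, 17.2 to 51.6, against 7.9%), 6 of them at the start and none at the transcript end, with strand not known for Rnf17 and Tdrd6. The median fold was 9.915. Sycp1, of the synaptonemal complex, had 388 tags at only 3.36-fold, 631 bp inside its start. Dpep3 and Tex14 are given above, and Rnf17, a protein of the germ cell cytoplasm, had 183 tags at 7.94-fold. Asz1, of the piRNA pathway (176 tags, 11.28-fold), and Dazl, an RNA-binding protein of germ cells (93 tags, 13.98-fold), had theirs 358 bp and 702 bp upstream. Tdrd9, also of that pathway, had 39 tags at 30.34-fold with an FDR of 9.23%, and Tdrd6 had 103 at 8.55-fold with an FDR of 5.27%. This list and the others were put together with earlier results of these data known, so none is independent evidence.

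Among the writers, readers and erasers of DNA methylation 2 of 18 genes were listed (11.1%, 3.10 to 32.8), near the 7.9% of all genes. Dnmt1, the partner of Uhrf1, had regions at both ends. It had 296 tags at 11.89-fold 696 bp inside its outermost annotated start and 133 tags at 14.95-fold 402 bp inside the transcript end. Which start of Dnmt1 these cells use was not examined. Dnmt3a, a methyltransferase of new sites, had 59 tags at 5.42-fold with an FDR of 100%. Of 27 imprinted genes 6 had a region (22.2%, 10.6 to 40.8, against 7.9%). Igf2r, the receptor that clears insulin-like growth factor 2, had 310 tags at 16.16-fold 682 bp inside its transcript end, and Plagl1, a zinc finger factor, had 189 at 8.43-fold 788 bp upstream. Sgce and Peg10 shared 158 tags at 9.06-fold, whereas Dlk1 (FDR 62.98%) and Zdbf2 (FDR 100%) were weak. Of 10 small heat shock genes, a list that holds Hspb1, the gene singled out by the study, 3 were listed (30%, 10.8 to 60.3, against 7.9%). Hspb1 had 187 tags at 10.06-fold 689 bp upstream, Hspb6 had 155 at 11.59-fold 977 bp beyond its end, and Hspb9 had 44 at 12.5-fold with an FDR of 51.42%.

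In large families the listed end varied. Of 388 zinc finger genes named Zfp 40 had a region (10.3%, 7.66 to 13.7), an interval that holds the 7.9% of all genes. Of 325 with a known strand, 18 had one at the start and 16 at the end. Over all genes with a known strand the shares were 2.78% at the start and 5.44% at the end. The median fold of the Zfp regions was 8.9. Zfp229 had 419 tags at 3.95-fold at its start, whereas Zfp1 had 371 at 17-fold at its end. Of 231 Tmem genes 16 had one (6.93%), with 1 at the start and 12 at the end and a median fold of 15.85, led by Tmem205 (320 tags, 23.21-fold). Of 76 ribosomal protein genes 12 had one (15.8%, 9.27 to 25.6), among them Rpl4 (248 tags, 16.73-fold at its end) and Rpl39l, a testis form (165 tags, 21.37-fold at its start). Processed copies of ribosomal protein genes are common, and how their reads were placed is not given. Of 39 Hox genes 5 had one (12.8%, 5.60 to 26.7), an interval that holds 7.9%. Hoxa3 had the most tags of these, with 217 at 26.81-fold 705 bp inside its transcript end. Of 1456 olfactory and vomeronasal receptor genes 12 had one (0.824%, 0.472 to 1.44), below the share of all genes. Solute carriers (28 of 362, 7.73%), ring finger and tripartite motif genes (11 of 148, 7.43%), kinase cascade genes (4 of 48, 8.33%), potassium channels (5 of 92, 5.43%), keratins (6 of 53, 11.3%), metalloproteases (4 of 76, 5.26%) and clustered protocadherins (1 of 57, 1.75%) had intervals that hold 7.9%.

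**Figure D5:**
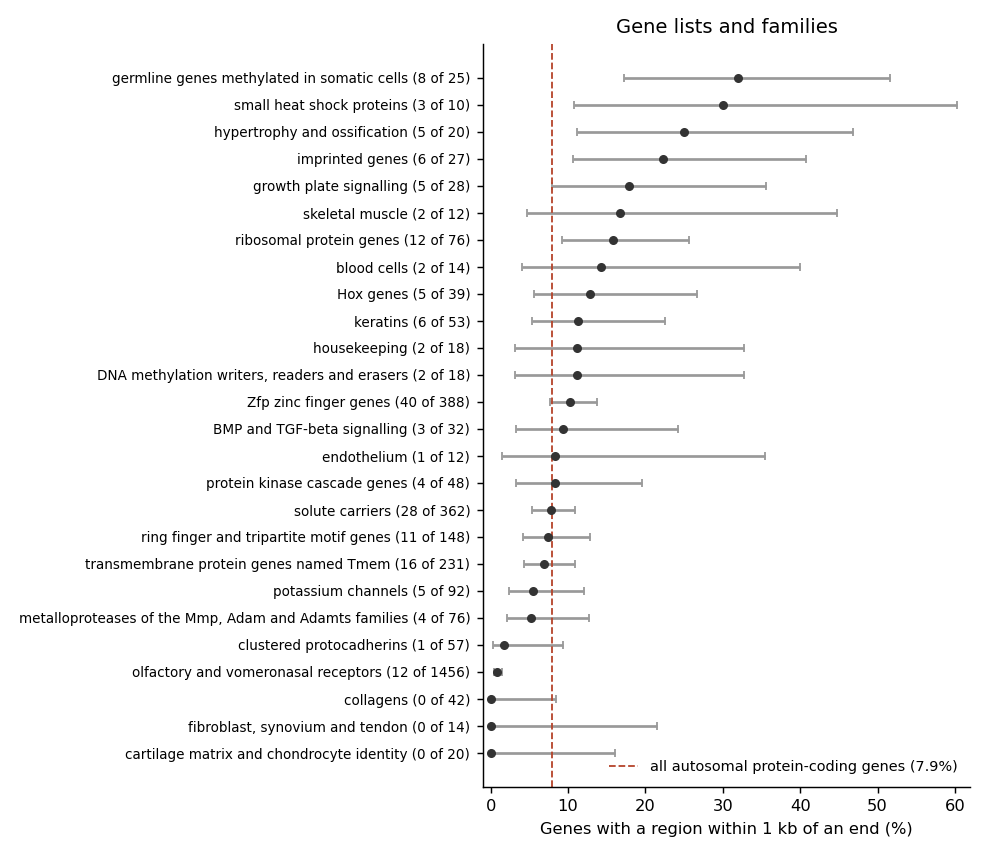
Percent of the genes of each list or family with a listed region within 1 kb of an end (horizontal axis), with 95% Wilson intervals as bars and the share of all autosomal protein-coding genes (7.9%) as a dashed line. The intervals of germline genes (8 of 25), small heat shock genes (3 of 10), hypertrophy genes (5 of 20), imprinted genes (6 of 27) and ribosomal protein genes (12 of 76) lie above the line, and that of olfactory and vomeronasal receptors (12 of 1456) below it. A region shared by neighbouring genes counts for each of them, as for Sgce with Peg10, Hspb6 with Lin37 and Hspb9 with Rab5c.

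Genes of other cell types and housekeeping genes were listed at shares whose intervals hold the 7.9% of all genes. Of 14 genes of fibroblasts, synovium and tendon 0 had a region (upper limit 21.5%). The counts were 2 of 14 for blood (14.3%), 1 of 12 for endothelial (8.33%), 2 of 12 for skeletal muscle (16.7%) and 2 of 18 for housekeeping genes (11.1%). Actb had 204 tags at 6.39-fold with an FDR of 7.49%, Rplp0 had 175 at 11.54-fold, and Myh1, a myosin of adult muscle, had 160 at 11.01-fold. Such places do not measure expression, so they are no check of which cells were in the cultures.

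Members lay in gene surroundings with further listed regions. The nearest other region was a median of 9.83 kb away, against 12.9 kb for other autosomal regions, which include 11969 between genes. Regions within genes were not compared by themselves. The median distance was 9.04 kb for transcript-end regions and 11.8 kb for start regions. Of the 1632 genes 50% (47.6 to 52.4) held another region farther inside, against 35.6% (34.9 to 36.3) of the genes with none at an end. Longer genes had more: in the fifth of genes of middle length, 12 to 25.1 kb, the shares were 46.2% and 33.9%, and among the longest genes 88.4% and 77.2%. By gene length, 5.15% of the shortest genes and 9.001% of the longest had a region at an end. Summits within a noncoding or pseudogene model were fewer among members, at 6.46% (5.36 to 7.76), against 10.8% of other autosomal regions. No member overlapped a microRNA hairpin (0 of 1611).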

How the data were processed

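Regions were called by the authors with MACS 1.4.2 at a p limit of 1e-10, treating Control as the enriched sample and cKO as its background and keeping 1 tag per position, per the file headers. Submitters' processing notes name the build mm10. No aligner is given in the sources used here. Per the file headers, the deposited tag counts are unscaled Control tags, and the score rescales the log10 of p. The authors' caller gave the fold, a ratio of Control to local cKO background, and the FDR, a percent from swapped libraries. The modelled shift was 58 bp beside a tag size of 55 bp, and its effect on summits was not tested.

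Gene ends came from RefSeq's gene table of GRCm38.p6, and strand from its start windows. Exon and UTR classes were not used. With 1 library per genotype no test was made. Named are Uhrf1, the 10 members highest by score, by tags and by fold (at least 100 tags, FDR at most 5%), genes with 3 regions, shared pairs (up to 6 per kind), up to 4 genes per list by tags (the remaining genes of short lists were added after their values were seen), 3 regions on each side of the limit and 6 start-window genes. Gm and Rik models were not named. The result of 1 gene family is not reported here. Members and lists were chosen with earlier results of these data known. Alternatives were other windows, p and FDR limits, joined regions and other gene assignments. Assignment was tested on simulated positions. Python 3.11.15, pandas 2.3.3, NumPy 2.4.6, SciPy 1.17.1 and Matplotlib 3.10.9 were used.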

Additional observations from a re-analysis of the deposited data

How the results depend on the processing

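Over 34 alternatives to the 5 values that describe the members, 22 stayed within the counting interval (for counts, within 1.5 times) and 12 moved. With a window of 0.5 kb there were 792 regions at 820 genes, a median fold of 12.61 and 28.0% nearer a start. With a window of 2 kb there were 3187 regions at 3151 genes, with 37.4% nearer a start. Fewer or more places follow from the width itself. With an FDR of at most 5% there were 987 regions at 1013 genes with a median fold of 13.64. With a p limit of 1e-20 the median fold was 13.21 and 82.7% had an FDR of at most 5%. These limits remove weak regions by construction. Leaving out olfactory and vomeronasal receptors, an alternative chosen after seeing the data, gave 1620 genes and 33.4% nearer a start. No paired analysis was possible because there was 1 library per genotype and no test was made. Regions of few tags limit the precision. An FDR of 100% was listed for 238 members (14.8%), against 16.1% of all autosomal regions.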

Other observations

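Away from the members, 113 other autosomal regions had their summit in the 300-base start window of a gene model (0.342% of 33064). Of these, 94 lay at starts of long noncoding RNAs (83.2%, 95% Wilson interval 75.2 to 89.0). Summits within 1 kb of the outermost ends of protein-coding genes had been set apart beforehand as members. Coding start windows near those ends were thus left out, so a high noncoding share follows in part from the rule. The share of noncoding models among the windows left was not counted. Another group of 20, of which 1 is also among the 94, lay at windows of protein-coding genes whose listed start is more than 1 kb from both outermost annotated ends. The start-window members had a median of 155 Control tags (117 to 195), against 100 (80 to 142) for these 113. The median folds were 11.53 (9.6 to 15.88) and 13.24 (11.25 to 15.41), and the intervals of both measures overlap. The named ones with the most tags, chosen after their values were seen, were Dmrtb1, a gene of male germ cell development in the mouse (338 tags, 9.97-fold), Vrk1, a nuclear kinase (299 tags, 10.96-fold), and Arpp21 (208 tags, 15.34-fold).

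The sex chromosomes, which the rule leaves out, had 73 regions at the ends of 73 of 966 protein-coding genes on X (7.56%, 6.05 to 9.40), with a median of 107 Control tags and a fold of 10.1. On Y there were 10 regions at 10 of 256 genes (3.91%, 2.14 to 7.04), with a median of 168 tags and a fold of 19.09. Copy number of X and Y in these cells is unknown and was not matched.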
